A study of Mus musculus with 4 samples.

Results

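The genes described here form a module of 112 genes with lower transcript levels in mice labelled null for Gemc1 than in wild-type (WT) mice. This held in trachea and in oviduct alike, and their symbols lie outside the named cilia gene families. They were chosen by their measured values. Each had a log2 signal of at least 7 on the WT array of both tissues and a null minus WT difference of at most -1, a fall of at least 2-fold, in both. Of 30674 named genes on the array, 11614 reached the WT level in both tissues and 200 of these also met both differences. Gene families known for cilia (axonemal dyneins, radial spokes, CFAP, tektin, coiled-coil and similar families), immunoglobulin, cytochrome P450, keratin and mucin genes and unnamed clones were then left out by symbol, 88 genes in all, which left the 112. Sntn, Rgs22, Fam216b and Agr3 served as its markers.

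Multiciliated cells line the airway and the oviduct and carry many beating cilia, each grown from a basal body and built around a microtubule axoneme that dynein motors bend. Gemc1, whose current symbol is Gmnc, encodes a geminin relative that acts early in the gene programme of these cells, upstream of Mcidas, Myb, Foxj1 and the RFX factors. RFX factors bind a promoter element called the X-box, and Foxj1 is a forkhead factor, both known for switching on genes of motile cilia. Besides the axoneme itself, a ciliated cell needs signalling enzymes, membrane proteins and metabolic enzymes, and it is among these that the less familiar genes of such a programme are found.

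The study, titled as an inquiry into the role of GEMC1 in the multiciliated cell programme, profiled freshly dissected whole tissue on Affymetrix arrays. There were 4 groups of 1 array each: trachea from a male mouse of 39 days labelled GEMC1 null, trachea from a WT male of 39 days, oviduct from a female of 65 days labelled GEMC1 null, and oviduct from a WT female of 65 days. All were of a mixed C57BL/6 x 129 strain background, and none was treated. The labels neither say whether animals were pooled nor describe the null allele. Levels below are log2 RMA signals, and each difference is the null-labelled minus the WT level within a tissue. With 1 array a group there is no replicate, hence no error and no test, and precision is limited by the number of arrays. Tissue, sex and age changed together between the 2 pairs and cannot be told apart.

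The targeted gene was low in trachea and went against the label in oviduct. Gmnc read 4.63 in the null-labelled trachea, against 5.90 in WT trachea, both below the median of the negative-control probe sets on their arrays (5.74 and 5.98). In oviduct it read 8.86 on the null-labelled array, against 6.11 on the WT array. Whether this probe set covers the deleted part of the gene was not tested, and the oviduct arrays are therefore named by their labels throughout. The trachea pair also differed in other tissue. All 9 skeletal muscle markers were at least 2-fold higher on the null-labelled trachea array (median level 12.4, against 5.72 on the WT array). So were all 6 squamous markers and 6 of 9 basal cell markers. By contrast, 12 of 13 airway secretory, 7 of 9 general epithelial, 7 of 7 lymphocyte and 5 of 6 adipocyte markers were at least 2-fold lower. Of 8 smooth muscle markers, 3 were lower and 1 was higher. In oviduct none of the muscle, squamous, basal, general epithelial or lymphocyte markers differed 2-fold in either direction. There 6 of 8 ovary somatic, 3 of 6 oocyte and 4 of 20 cell cycle markers were at least 2-fold lower. These counts take a level below the negative-control median as that median. A marker whose WT level lay less than 2-fold above the median of the null-labelled array could not count as lower. In oviduct this held for every lymphocyte marker. The part of these differences in the values below was not tested. In whole tissue, fewer cells of a type and less RNA per cell cannot be told apart.

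Promoters give a view of the module that its selection did not use. RefSeq windows of 300 bases ran from 250 before to 50 after a listed start (build GRCm38.p6). For 74.7% of genes with 1 window, that start was the annotated gene start. A match in any window of a gene counted. The 7326 genes with a window that reached the same WT level had 9394 windows. Windows were found for 87 of the 112 genes, 104 in all. The other 25 were Ankrd66, Ttc25, Efcab1, Mapk15, Ankfn1, Zfp474, Me2, Thbs1, Xylt1, T2, Oas2, Lrrc46, Ldlrad1, Tcte1, Saxo2, Cidea, Usp18, Lrrc36, Mir8090, Wdr78, Map3k19, Frmpd2, Wdr95, Rgs22 and Sec14l4. Shown first are the first 280 bases of 4 of them: Sntn, the marker with the lowest mean difference over the tissues, and Ppil6, Fam183b and Dynlrb2, which hold an X-box or a single X-box arm close to the start. Capitals mark forward X-boxes, the forward arm GTTGCC and, in Sntn, the forkhead letters GTAAACA. The stretches are Sntn chr14:13670626-13670905 (plus strand), Ppil6 chr10:41490189-41490468 (plus strand), Fam183b chr11:58801931-58802210 (minus strand) and Dynlrb2 chr8:116504765-116505044 (plus strand).
Sntn: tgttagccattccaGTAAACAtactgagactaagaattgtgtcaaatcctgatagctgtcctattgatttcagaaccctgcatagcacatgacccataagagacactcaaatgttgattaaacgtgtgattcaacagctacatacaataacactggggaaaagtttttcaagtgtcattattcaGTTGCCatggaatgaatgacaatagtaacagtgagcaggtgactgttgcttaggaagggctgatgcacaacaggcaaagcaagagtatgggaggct
Ppil6: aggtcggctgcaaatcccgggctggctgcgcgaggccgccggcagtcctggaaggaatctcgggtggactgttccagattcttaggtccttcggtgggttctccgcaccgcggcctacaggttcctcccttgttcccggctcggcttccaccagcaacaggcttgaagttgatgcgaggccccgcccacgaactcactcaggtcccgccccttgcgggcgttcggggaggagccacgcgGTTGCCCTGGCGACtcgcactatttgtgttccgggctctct
Fam183b: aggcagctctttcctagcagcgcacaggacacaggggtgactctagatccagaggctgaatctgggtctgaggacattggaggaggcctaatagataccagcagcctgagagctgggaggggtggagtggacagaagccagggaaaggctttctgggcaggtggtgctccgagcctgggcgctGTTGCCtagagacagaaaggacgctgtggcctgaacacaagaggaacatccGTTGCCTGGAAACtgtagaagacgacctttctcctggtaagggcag
Dynlrb2: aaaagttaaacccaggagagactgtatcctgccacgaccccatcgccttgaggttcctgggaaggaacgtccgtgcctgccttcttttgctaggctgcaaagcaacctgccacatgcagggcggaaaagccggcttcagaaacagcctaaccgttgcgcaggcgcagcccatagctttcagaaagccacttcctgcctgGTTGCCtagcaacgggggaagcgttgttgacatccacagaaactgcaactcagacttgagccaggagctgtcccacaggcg

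Around the X-box, the match is easiest to see when short stretches of several promoters are set beside each other. The next 8 were chosen, after the search, to show the element, and capitals mark the X-box. All 8 match the same searched letters, so their likeness within the X-box is partly set by the search. By the roles given below, they are genes of the axoneme, of the basal body and tip, or of no well described role. They lie at Erich3 chr3:154711051-154711099 (plus strand), Lrriq1 chr10:103236310-103236359 (minus strand), Iqca chr1:90153505-90153554 (minus strand), Cibar2 chr8:120177457-120177505 (minus strand), Catip chr1:74362099-74362148 (plus strand), Adgb chr10:10472385-10472433 (minus strand), Lrguk chr6:34029412-34029461 (plus strand) and Fam166c chr5:30466019-30466067 (plus strand).
Erich3: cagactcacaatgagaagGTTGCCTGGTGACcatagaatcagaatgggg
Lrriq1: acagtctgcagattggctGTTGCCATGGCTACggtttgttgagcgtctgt
Iqca: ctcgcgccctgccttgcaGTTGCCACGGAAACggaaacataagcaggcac
Cibar2: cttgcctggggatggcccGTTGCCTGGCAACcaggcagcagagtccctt
Catip: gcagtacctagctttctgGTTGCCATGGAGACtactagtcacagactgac
Adgb: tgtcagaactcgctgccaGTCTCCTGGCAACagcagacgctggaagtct
Lrguk: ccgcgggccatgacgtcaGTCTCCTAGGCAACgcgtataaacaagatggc
Fam166c: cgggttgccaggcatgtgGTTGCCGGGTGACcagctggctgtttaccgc

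In 5 of these 8 the first arm reads GTTGCC and begins within 64 bases before the listed start. The element begins at -11 from the start in Ppil6, at -16 in Fam183b and Adgb, at -18 in Cibar2, Catip and Lrguk, at -19 in Lrriq1, at -40 in Fam166c, at -64 in Erich3 and at -100 in Iqca. By the letters searched, given below, Sntn had no X-box but held a single arm at -66 and a forkhead match at -236. Dynlrb2 had a single arm by those letters, at -51. Its arm is followed by tagcaac, which lacks the GG that the searched second arm requires. X-box counts below therefore cover only second arms that begin with GG.

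Over the module, X-box letters were more frequent than over promoters at large. A loose X-box (GTNNCC, a gap of 0 to 3 bases, then GGNNAC) was found in 21 of 87 genes (24.1%), against 434 of 7326 genes that reached the same WT level (5.92%) and 1185 of all 27025 genes with a window (4.38%). Among the named families left out of the module the share was 15 of 73 (20.5%). The strict form (GTTNCC, the same gap, GGNAAC) was found in 3 of 87 (3.45%), namely Cibar2, Fam183b and Iqca, against 1.08% of genes at the same WT level and 0.936% of all. The single arm GTTGCCA was present in 19 of 87 (21.8%), against 4.97% and 5.03%. Its first 6 letters GTTGCC were present in 38 of 87 (43.7%), against 15.2% and 14.1%. In the left-out families the strict form was found in 5.48%, GTTGCCA in 17.8% and GTTGCC in 34.2%. These letters were thus not particular to the module. Strict matches are also loose ones, and an X-box can hold an arm, so these shares overlap.

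The forkhead and E2F letters were less set apart. The forkhead letters GTAAACA were found in 7 of 87 genes (8.05%), against 3.10% of genes at the same WT level and 4.05% of all. The shorter TGTTTA, whose letters lie in the reverse complement of GTAAACA, was found in 14 of 87 (16.1%), against 10.1% and 15.1%. In the left-out families GTAAACA was found in 6.85% and TGTTTA in 23.3%. The E2F letters GGCGGGAA were found in 3 of 87 (3.45%), against 4.65% and 2.52%, and the shorter GCGGGAA in 5 of 87 (5.75%), against 9.32% and 5.29%. All 8 patterns were searched on both strands and were chosen with results of these data known. The median GC content of the windows was 55.2% in the module, 61.7% in genes at the same WT level and 52.7% in all genes, so the sets differed in base composition. A match is a description of letters, not of binding.

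Position and strand were less even in the module. Of 47 single arms GTTGCC in its windows, 34 read forward along the gene (72.3%), against 699 of 1276 (54.8%) in genes at the same WT level. The left-out families did not share this, with 14 of 31 forward (45.2%). Of the 34 forward arms, 31 began no more than 120 bases before the start or after it (91.2%), against 78.6% of forward arms in the left-out families and 65.4% in genes at the same WT level. Of the 22 loose X-boxes in the module, 20 began no more than 110 bases before the start or after it. These distances were chosen after the positions were seen.

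**Figure D1:**
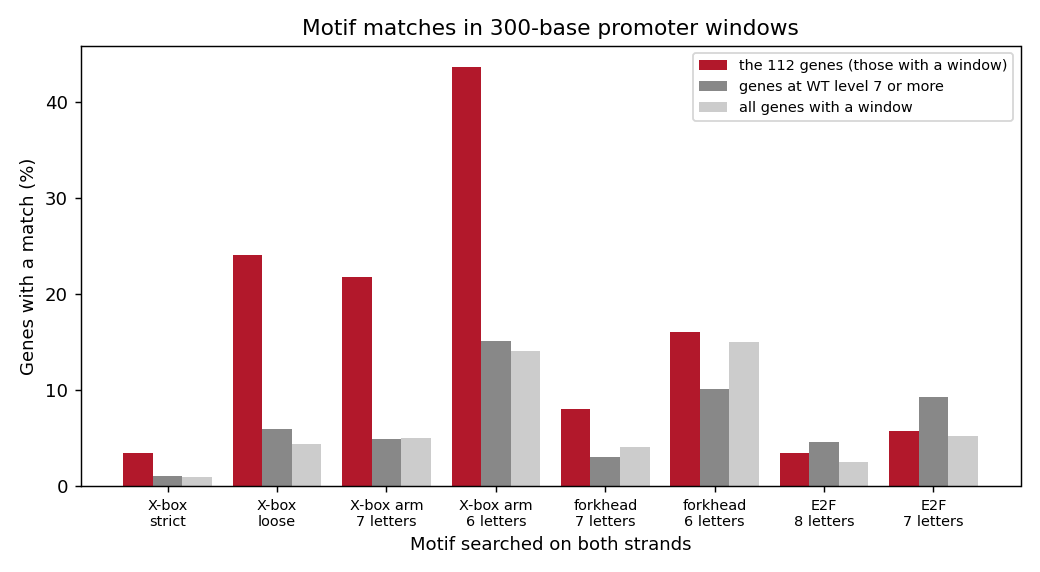
Percent of genes with a match to each of 8 patterns in 300-base promoter windows, for the module (87 genes with a window), for genes at a WT level of 7 or more and for all genes with a window. The loose X-box was found in 24.1% of the module, against 5.92% and 4.38% in the other sets. In the left-out families, which are not drawn, it was found in 20.5%. The E2F patterns were not more frequent in the module than in genes at the same WT level.

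Turning to the levels, all 112 genes stood above the negative-control median on both WT arrays, as the selection required, and many stood below it on the null-labelled arrays. On the null-labelled trachea array 40 of the 112 lay under that median and on the null-labelled oviduct array 26, of which 22 did so on both. The other 68 stayed above it on both null-labelled arrays. Of all 11614 genes at the WT level, 90 lay under it in the null-labelled trachea, 59 in the null-labelled oviduct and 48 in both. In the left-out families the counts were 38, 30 and 26 of 88, so this was not particular to the module. The selection used these levels. A fold against a level below that median is given as a lower bound, taken against the median itself. The median level of the module was 6.12 in the null-labelled trachea, against 8.14 in WT trachea, and 6.29 in the null-labelled oviduct, against 8.33 in WT oviduct.

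**Figure D2:**
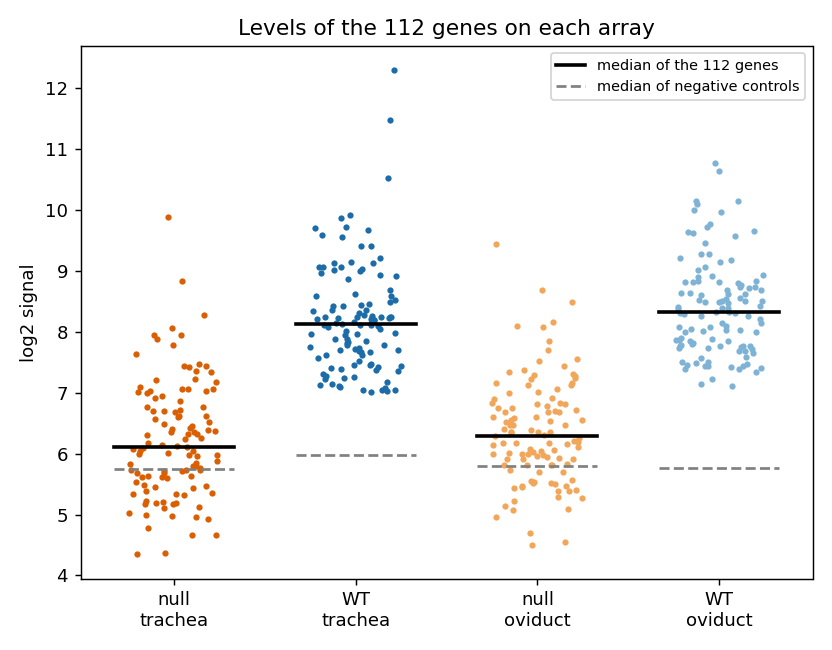
Log2 signal of each of the 112 genes (points) on each of the 4 arrays, with the module's median (black line) and the negative-control median (dashed line). The medians were 6.12 in the null-labelled and 8.14 in the WT trachea, and 6.29 in the null-labelled and 8.33 in the WT oviduct.

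Among genes at the WT level, 6.54% were at least 2-fold lower on the null-labelled array in trachea, 2.63% in oviduct and 1.72% in both, and the 112 are by construction part of the last. Their median difference was -1.85 in trachea and -1.82 in oviduct, where the median over all 11614 genes was -0.04 and 0.03. These values chose the genes and support nothing by themselves. With levels raised to the negative-control median the medians were -1.70 and -1.79, and 28 of the 112 genes were at most -2 in both tissues, 4 at most -3 and 0 at most -4. So raised, the difference in oviduct lay within 0.5 of that in trachea for 70 of the 112, and 9 differed by more than 1. As measured, 67 of the 112 lay within 0.5 and 10 differed by more than 1. Over the 11614 genes at the WT level these counts were 8364 and 1138. The module was thus not closer between the tissues than genes at large.

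**Figure D3:**
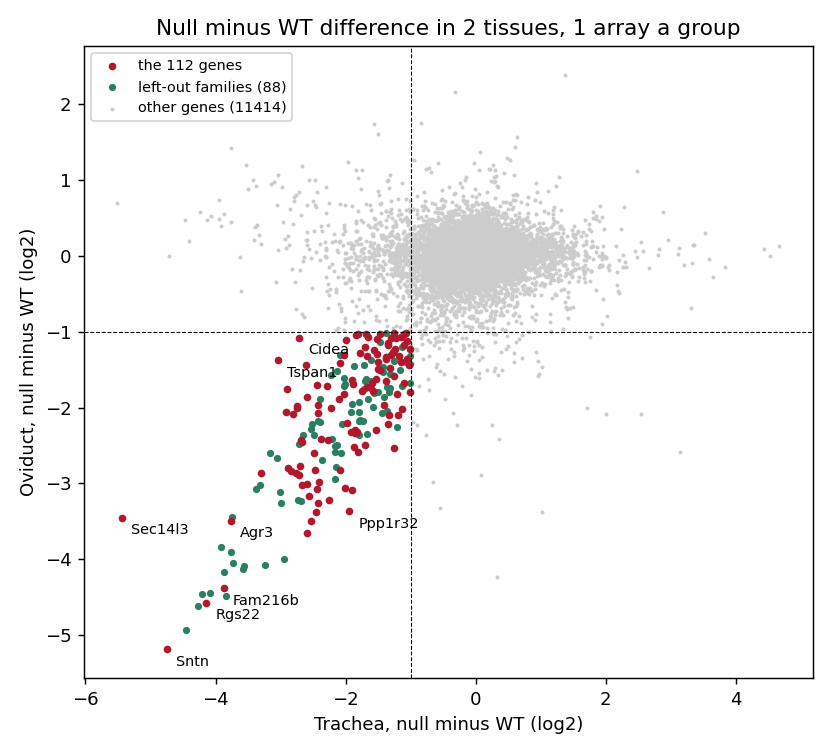
Null minus WT difference (log2) in trachea (horizontal axis) and oviduct (vertical axis) of the 11614 genes at a WT level of 7 or more, with dashed lines at the threshold of -1. The 112 genes fill the lower left corner by selection, together with 88 genes of the left-out families, and Sec14l3 stands apart by its larger difference in trachea (-5.45) than in oviduct (-3.46).

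With levels raised to the negative-control median, Sec14l3 had the lowest mean difference of the 112 genes (-4.45), followed by the markers Sntn (-4.01), Rgs22 (-3.63) and Fam216b (-3.59), while the marker Agr3 (-2.29) had rank 26. Sntn encodes sentan, a protein of the ciliary tip. It read 4.66 in the null-labelled trachea, against 9.41 in WT trachea, and 4.96 in the null-labelled oviduct, against 10.15 in WT oviduct. It was thus at least 12.7-fold lower in trachea and at least 20.6-fold lower in oviduct. Rgs22, a member of the family of regulators of G protein signalling known mainly from testis, read 5.0 in the null-labelled trachea, against 9.14 in WT trachea, and 5.07 in the null-labelled oviduct, against 9.65 in WT oviduct. Fam216b, whose function is little described, read 5.19 in the null-labelled trachea, against 9.06 in WT trachea, and 5.27 in the null-labelled oviduct, against 9.66 in WT oviduct. Agr3, a protein disulphide isomerase relative of ciliated cells known for a part in regulating beat frequency, read 4.34 in the null-labelled trachea, against 8.11 in WT trachea, and 4.50 in the null-labelled oviduct, against 8.0 in WT oviduct. All 4 lay below the negative-control median on both null-labelled arrays.

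The genes whose profiles lay nearest to Sntn, Rgs22 and Fam216b included each other and axonemal dynein heavy chains. By Euclidean distance over the 4 log2 levels, the genes nearest to Sntn were Dnah6 (0.641), Rgs22 (0.672), Dnah5 (0.843), Fam216b (0.861) and Rsph4a (1.10). Nearest to Rgs22 were Fam216b (0.289), Dnah6 (0.307) and Dnah5 (0.384), and nearest to Fam216b were Dnah5 (0.165), Rgs22 (0.289) and Rsph4a (0.357), with Cfap44 the fifth gene for each. By measured levels Agr3 stood farther from its neighbours. Kcnrg (0.859), Map3k19 (1.07), Wdr63 (1.08) and Cdkl4 (1.10) were the nearest named genes, with the clone Gm12695 (1.12) after them. All the genes compared here, the markers and their neighbours alike, lay below the negative-control medians on both null-labelled arrays. Their distances therefore include differences below background, and distances with levels raised to those medians were not computed. The distance also carries how strongly each probe set binds, and it rests on 4 arrays.

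The axoneme group was the largest of those with a described role, with 26 genes and a median difference of -1.90 in trachea and -2.32 in oviduct, or -1.77 and -2.07 with levels raised to the negative-control median. Dynein parts were Dynlrb2, a roadblock light chain, Wdr63 and Wdr78, intermediate chains of inner arms, Tctex1d4, a Tctex-type light chain relative, Ttc25 and Efcab1, of the outer arm, and Ttc12, an assembly factor. Dynlrb2 read 5.12 in the null-labelled trachea, against 7.97 in WT trachea, and 5.50 in the null-labelled oviduct, against 8.33 in WT oviduct. Wdr63 read 5.19 in the null-labelled trachea, against 7.78 in WT trachea, and 5.08 in the null-labelled oviduct, against 8.08 in WT oviduct. Both were below the negative-control median on the null-labelled arrays, while Ttc12 stayed at 7.09 in the null-labelled trachea, against 8.23 in WT trachea, and at 7.85 in the null-labelled oviduct, against 8.92 in WT oviduct.

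Regulatory and central parts of the axoneme followed. Fbxl13, Tcte1 and Iqca are counted with the nexin-dynein regulatory complex, Wdr66 and Maats1 with a complex at the base of the radial spokes, Dnajb13 and Lrrc23 with the radial spokes, and Spef2 with the central pair. Fbxl13 read 4.95 in the null-labelled trachea, against 7.41 in WT trachea, and 5.44 in the null-labelled oviduct, against 8.81 in WT oviduct. It was therefore at least 3.17-fold lower in trachea and at least 8.12-fold lower in oviduct. By synonyms in the RefSeq table, Wdr66, Maats1 and the basal body gene Bbof1 belong to left-out families. Synonyms from other sources were not searched. Other genes of the module, such as Wdr63, Fbxl13 and Dnajb13, belong to the same structures as left-out genes under other symbols. The boundary of the module is thus partly one of nomenclature.

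Microtubule-associated and sperm-related proteins made up the rest of the axoneme group: Fam183b, Fam166c, Spaca9, Saxo2, Odf3b and Ppp1r32, with Adgb, Dlec1, Meig1, Eno4 and Lrrc46, all known chiefly from sperm or motile cilia. Fam183b, whose promoter is shown above, read 5.72 in the null-labelled trachea, against 8.15 in WT trachea, and 5.39 in the null-labelled oviduct, against 8.64 in WT oviduct. Ppp1r32 read 5.77 in the null-labelled trachea, against 7.71 in WT trachea, and 5.70 in the null-labelled oviduct, against 9.07 in WT oviduct. It was at least 9.69-fold lower in oviduct and 3.84-fold lower in trachea. Adgb, an androglobin with a globin domain, was at least 6.79-fold lower in oviduct and 3.75-fold lower in trachea.

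The 9 genes of the basal body and ciliary tip had a median difference of -1.51 in trachea and -1.40 in oviduct. Besides Sntn they comprised Bbof1 and Gas2l2, known for orienting basal bodies, Cep126, a centrosomal protein, Ttc21a and Rabl2, linked with intraflagellar transport, Fam161a, of the photoreceptor cilium, Cibar2 and Catip. Ttc21a read 6.41 in the null-labelled trachea, against 8.68 in WT trachea, and 6.47 in the null-labelled oviduct, against 8.90 in WT oviduct. Cep126 differed more in trachea, with 5.46 in the null-labelled tissue, against 8.36 in WT, than in oviduct, with 7.07 in the null-labelled tissue, against 8.82 in WT. Gas2l2 read 6.33 in the null-labelled trachea, against 7.83 in WT trachea, and 6.61 in the null-labelled oviduct, against 8.0 in WT oviduct. Sntn was the only gene of the 9 below the negative-control median on both null-labelled arrays.

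Signalling genes numbered 15, most of them kinases and phosphatases, with median differences of -1.66 in trachea and -1.82 in oviduct, or -1.36 and -1.82 so raised. The kinases were Mak, known for control of cilium length in photoreceptors, Cdkl4, Stk36, a central pair-related kinase, Mapk15, linked with ciliogenesis, Map3k19, and Nek2 and Nek5 of the NIMA family. Mak read 5.22 in the null-labelled trachea, against 8.11 in WT trachea, and 5.82 in the null-labelled oviduct, against 8.62 in WT oviduct. Map3k19 read 5.17 in the null-labelled trachea, against 7.88 in WT trachea, and 5.14 in the null-labelled oviduct, against 8.04 in WT oviduct. Cdkl4 read 4.66 in the null-labelled trachea, against 7.11 in WT trachea, and 4.70 in the null-labelled oviduct, against 7.77 in WT oviduct, and its fold is a bound of at least 2.57 and at least 3.94. The other signalling genes were the phosphatase Cdc14a, Dusp18 and Ppp1r36, the protein kinase A regulatory subunit Prkar2b, the receptor Gpr83, and Kndc1 and Arhgap18, of small GTPase pathways. Prkar2b read 6.95 in the null-labelled trachea, against 9.87 in WT trachea, and 6.68 in the null-labelled oviduct, against 8.74 in WT oviduct. Nek2 is also a mitotic kinase. Its oviduct difference of -1.68 stood beside the lower cell cycle markers named above, whose part in it was not tested.

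Membrane and lipid genes, 13 in all, had median differences of -2.25 in trachea and -2.45 in oviduct, or -1.78 and -2.29 with levels raised to the negative-control median. Sec14l3 and its neighbour Sec14l4 on chromosome 11, with no protein-coding gene between them, encode lipid-binding proteins of the SEC14 family. Sec14l3 read 6.04 in the null-labelled trachea, against 11.49 in WT trachea, and 6.00 in the null-labelled oviduct, against 9.45 in WT oviduct, which is 43.6-fold and 11.0-fold lower. Sec14l4 differed by far less, -1.35 in trachea and -1.15 in oviduct. Kcnrg, a regulator of potassium channels, read 4.93 in the null-labelled trachea, against 7.53 in WT trachea, and 4.55 in the null-labelled oviduct, against 8.21 in WT oviduct. Tmem232 read 5.34 in the null-labelled trachea, against 8.02 in WT trachea, and 5.38 in the null-labelled oviduct, against 8.40 in WT oviduct. Tm4sf1, a tetraspan surface protein, stayed above 7 on every array: 7.43 in the null-labelled trachea, against 9.68 in WT trachea, and 7.56 in the null-labelled oviduct, against 10.78 in WT oviduct. Tspan1, a tetraspanin, differed by -3.04 in trachea and -1.38 in oviduct. The group was completed by Tmem212, Ldlrad1, the potassium channel Kcnk12, the transporters Slc12a7 and Slc20a1, Gramd2 and Syt10. Syt10, a synaptotagmin, is next to Rabl2 among the protein-coding genes of chromosome 15.

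Enzymes outside these groups numbered 8. Agr3 has been described. Ppil6, a peptidyl-prolyl isomerase relative, read 5.73 in the null-labelled trachea, against 9.03 in WT trachea, and 6.91 in the null-labelled oviduct, against 9.77 in WT oviduct. Aldh1a1, a retinaldehyde dehydrogenase, read 9.88 in the null-labelled trachea, against 12.30 in WT trachea, and 8.07 in the null-labelled oviduct, against 10.15 in WT oviduct. It thus kept a high signal on every array although it was 5.35-fold lower in trachea and 4.21-fold lower in oviduct. Marchf4, a ubiquitin ligase, read 6.32 in the null-labelled trachea, against 8.19 in WT trachea, and 6.25 in the null-labelled oviduct, against 8.77 in WT oviduct. The others were Aldh3b1, Me2, Xylt1, a xylosyltransferase of proteoglycan synthesis, and Chia1, a chitinase.

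A further 24 genes have no well described role, and their differences had medians of -1.83 in trachea and -1.90 in oviduct, or -1.53 and -1.84 so raised. Besides Fam216b, the lowest measured means were those of Zfp474, Vwa3a and Erich3. Zfp474 read 5.11 in the null-labelled trachea, against 7.68 in WT trachea, and 5.22 in the null-labelled oviduct, against 8.38 in WT oviduct. Vwa3a, a von Willebrand factor A domain protein, read 5.82 in the null-labelled trachea, against 8.59 in WT trachea, and 6.28 in the null-labelled oviduct, against 9.15 in WT oviduct. Erich3, a glutamate-rich protein whose X-box is printed above, read 5.68 in the null-labelled trachea, against 8.09 in WT trachea, and 5.40 in the null-labelled oviduct, against 8.39 in WT oviduct. The rest were Lrguk, Lrrc36, Lrrc43, Lrrc71, Lrrc74b and Lrriq1, with leucine-rich repeats, Wdr93 and Wdr95, with WD repeats, Ankfn1, Ankrd45 and Ankrd66, with ankyrin repeats, and Fhad1, Frmpd2, Erich2, Fam149a, Armh1, BC051019, Tsnaxip1, T2 and Cdiptos. Lrrc74b differed by -2.01 in trachea and -3.06 in oviduct.

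**Figure D4:**
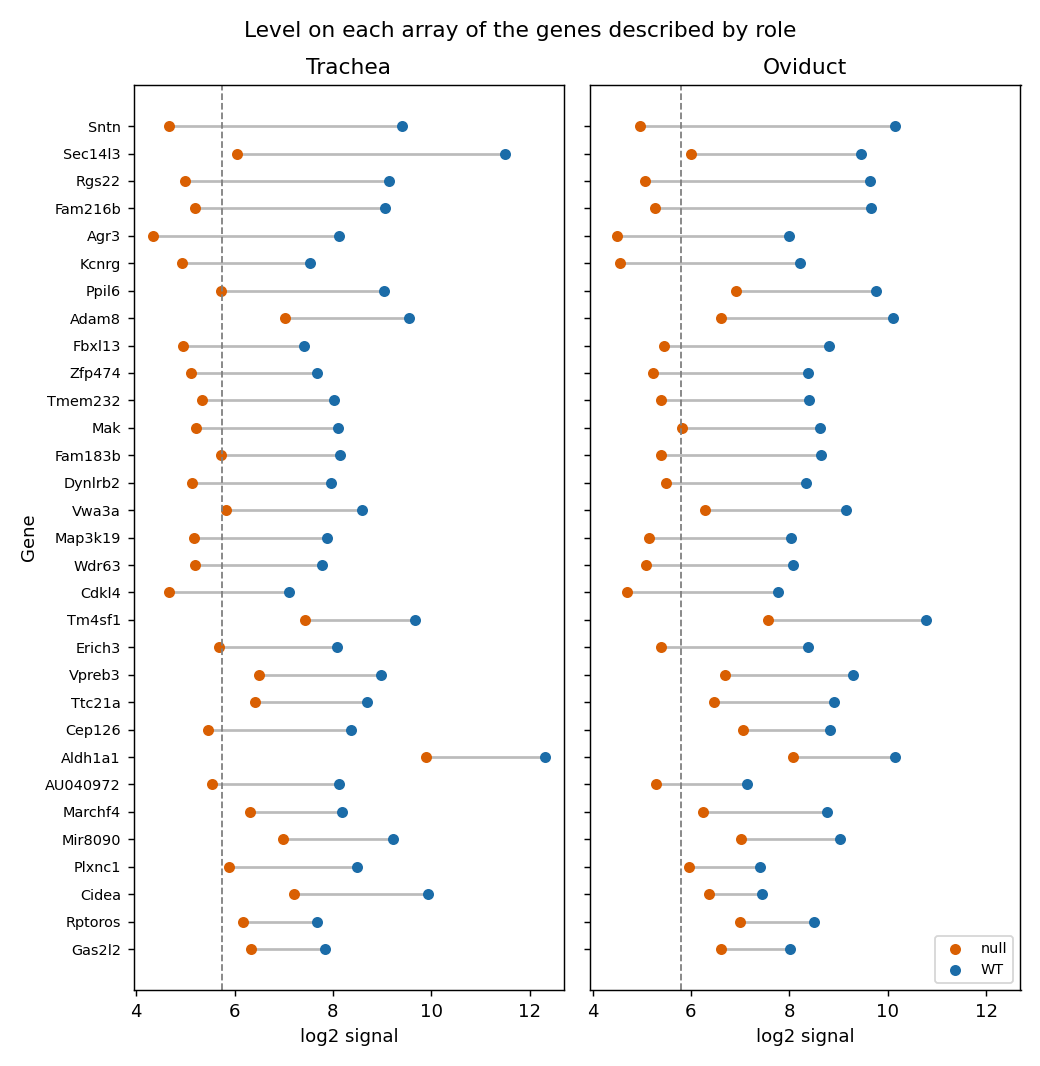
Log2 signal of the genes with the lowest mean difference, overall and by role, on the null-labelled (orange) and WT (blue) array of trachea (left) and oviduct (right), with the negative-control median of the null-labelled array dashed. Genes such as Sntn, Rgs22 and Cdkl4 lie left of that line on both null-labelled arrays, whereas Aldh1a1, Tm4sf1 and Adam8 stay to its right.

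Genes known mainly from other cells were also in the module, 14 of them, with median differences of -1.75 in trachea and -1.19 in oviduct. They were Adam8, a metalloprotease of leukocytes, Plxnc1, Thbs1, Lhb, the luteinising hormone beta chain, Vpreb3, a pre-B cell protein, Usp18 and Oas2, interferon-induced genes, Cidea, a lipid droplet protein, Tnni3, cardiac troponin I, Nupr1, Aff3, Fscn1, Cyfip2 and Ankrd44. Adam8 read 7.02 in the null-labelled trachea, against 9.55 in WT trachea, and 6.61 in the null-labelled oviduct, against 10.10 in WT oviduct.

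Marker genes of those cells were set beside 5 of these genes, counting as lower those at least 2-fold lower after levels were raised to the negative-control median. A marker whose WT level lay less than 2-fold above the median of the null-labelled array could not count as lower. Vpreb3 read 6.49 in the null-labelled trachea, against 8.97 in WT trachea, and 6.69 in the null-labelled oviduct, against 9.29 in WT oviduct. The 7 lymphocyte markers had a median level of 5.89 in the null-labelled trachea, against 9.15 in WT trachea, and were all lower. In oviduct they had 6.07 in the null-labelled tissue, against 5.82 in WT. The highest of them in WT oviduct reached 6.69, and the negative-control median of the null-labelled oviduct was 5.79. None of them could therefore count as lower in oviduct, and the comparison with Vpreb3 there is not informative. Cidea read 7.21 in the null-labelled trachea, against 9.92 in WT trachea, and 6.36 in the null-labelled oviduct, against 7.44 in WT oviduct. Of the 6 adipocyte markers measured, Cidea among them, 5 were lower in trachea and Cidea alone was lower in oviduct. Adipoq, Ucp1 and Lep (6.52, 4.79 and 5.22 in WT oviduct) were too low there to count as lower. Tnni3 stood at -1.81 in trachea and -1.02 in oviduct, and of 3 other cardiac genes Myh6 and Myl7 were lower in trachea (-2.68 and -3.36) and not in oviduct (0.15 and 0.08). On the genome Tnni3 adjoins Dnaaf3, a left-out cilia gene, and Vpreb3 adjoins Gm867, a left-out clone, each with 0 protein-coding genes between. Other kinds of gene were not counted. Whether signal of a neighbour enters either value was not tested. Of 10 interferon-induced genes, Usp18 and Oas2 among them, 6 were lower in trachea, and in oviduct those 2 were, with Oasl2 at -0.85 and Rsad2 at -0.64 short of 2-fold. The cardiac and interferon lists were added after values were seen.

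The 3 noncoding genes were AU040972, Rptoros and Mir8090. AU040972 read 5.54 in the null-labelled trachea, against 8.13 in WT trachea, and 5.29 in the null-labelled oviduct, against 7.14 in WT oviduct. The Mir8090 locus read 6.99 in the null-labelled trachea, against 9.21 in WT trachea, and 7.01 in the null-labelled oviduct, against 9.02 in WT oviduct. Its 2 probe sets gave nearly the same values, and whether they report the mature miRNA was not tested. Ankfn1 and Erich3 also had 2 probe sets each, and the lower probe set of Ankfn1 fell just short of the WT level in trachea (6.93).

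In WT tissue most of the module was somewhat lower in trachea than in oviduct. The WT trachea level was below the WT oviduct level for 84 of the 112 genes (75%), against 49.3% of the 11614 genes at the WT level, and the median WT trachea minus WT oviduct difference was -0.33, against 0.01. The left-out families differed in the same direction, with 86.4% below and a median of -0.43. The selection did not use this difference, although it required a level of 7 in both. Of the 112 genes, 7 (6.25%) were at least 2-fold higher in WT trachea and 7 (6.25%) at least 2-fold lower, where the shares over all genes at the WT level were 3.85% and 1.95%. Cidea (9.92 in WT trachea, 7.44 in WT oviduct), Aldh1a1 (12.30 and 10.15), Sec14l3 (11.49 and 9.45), Ankrd44 (8.92 and 7.38) and Fscn1 (9.60 and 8.26) were the highest in trachea, ahead of Prkar2b. Fbxl13 (7.41 in WT trachea, 8.81 in WT oviduct), Ppp1r32 (7.71 and 9.07), Tm4sf1 (9.68 and 10.78), Lrrc74b (8.87 and 9.96), Rabl2 (-1.05 for WT trachea minus WT oviduct) and Syt10 (7.05 and 8.08) were the highest in oviduct relative to trachea.

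On the null-labelled arrays the trachea minus oviduct level had a median of -0.09 over the 112 genes, with quartiles of -0.46 and 0.20, where in WT the quartiles were -0.56 and 0.02. With levels raised to the negative-control median, the oviduct minus trachea difference was highest for Sec14l3 (1.99), Cidea (1.63), Plxnc1 (1.17), Tspan1 (1.10) and AU040972 (1.04), and lowest for Fbxl13 (-1.35), Ppp1r32 (-1.33), Lrrc74b (-1.05), Syt10 (-1.04) and Tm4sf1 (-0.97). Of these, Sec14l3, Cidea, Plxnc1, Lrrc74b and Tm4sf1 stood above that median on every array. In trachea these values stood beside the airway secretory markers, whose median level was 6.69 on the null-labelled array, against 11.5 on the WT array, where in oviduct it was 6.34 on the null-labelled array, against 6.18 on the WT array. Their part in the tissue effect was not tested.

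Most relatives of the genes did not reach a 2-fold lower level. In 15 listed gene families or groups with a gene of the module, 84 relatives outside it were measured. Of these, 40 had a WT level of 7 or more in both tissues. Of these 40, 6 were at least 2-fold lower in trachea (15%), 4 in oviduct (10%) and 2 in both (5%). The shares of all genes at that WT level were 6.54%, 2.63% and 1.72%. By the rule, a relative at that level and lower in both can only be a gene left out by symbol. The 2, Wdr16 and Wdr96, also count among the 6 and the 4, so these shares are partly set by the selection. Over all 84, with levels raised to the negative-control median, the counts were 10, 13 and 5. The median measured differences of all 84 were -0.36 in trachea and -0.27 in oviduct. For all genes at the WT level, which only 40 of the 84 reached, they were -0.04 and 0.03, so the 2 sets are not alike in level. Agr2, the secretory relative of Agr3, read 5.70 in the null-labelled trachea, against 9.46 in WT trachea, and 10.87 in the null-labelled oviduct, against 9.45 in WT oviduct, so that it was lower in one tissue and higher in the other. Fam216a differed by -0.48 in trachea and -0.75 in oviduct, where Fam216b differed by -3.87 and -4.38. Dynlrb1, the ubiquitous sister of Dynlrb2, read 10.08 in the null-labelled trachea, against 9.72 in WT trachea, and 10.10 in the null-labelled oviduct, against 10.14 in WT oviduct. Of 20 other Rgs genes measured, Rgs2 was at least 2-fold lower in trachea (-2.12) and none was in oviduct, with levels raised to the negative-control median. Rgs genes less than 2-fold above that median in WT could not count as lower once raised. So raised, Nek10 and Nek11 were at -0.86 and -0.85 in trachea and -1.67 and -1.44 in oviduct, and neither reached the WT level in trachea.

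**Figure D5:**
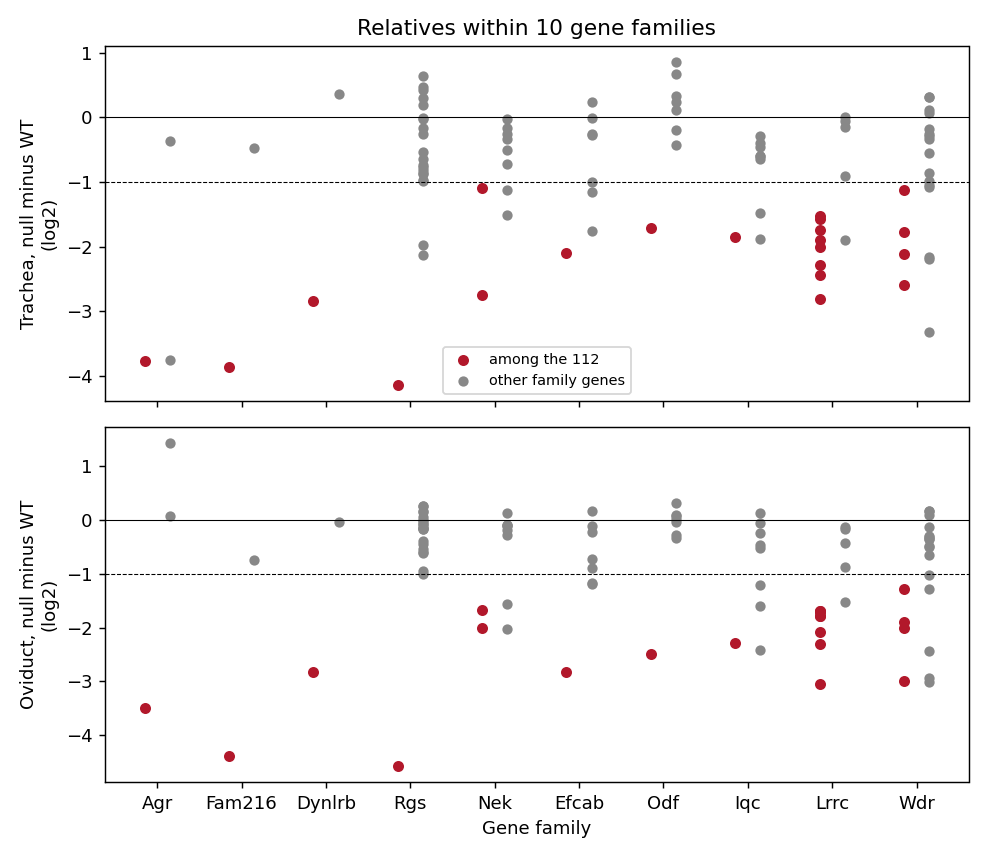
Null minus WT difference (log2) in trachea (top) and oviduct (bottom) for genes of 10 families, with the genes of the module in red and their relatives in grey, and the threshold of -1 dashed. Red points lie below the line by selection, and the relatives of Fam216b and Dynlrb2 lie above it in both tissues, whereas Agr2 is at -3.76 in trachea and 1.43 in oviduct.

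Known regulators of the multiciliated programme mostly differed by less than 2-fold. With levels raised to the negative-control median, of 12 measured 1 was at least 2-fold lower in trachea (Myb), 2 in oviduct (Myb and Trp73), and Gmnc was higher in oviduct. Ccno (6.72 in WT trachea, 6.20 in WT oviduct), Gmnn (6.18 and 6.23) and Gmnc (5.90 and 6.11) lay too near that median. They could not count as 2-fold lower in either tissue, so a fall in them is not excluded. Myb, which the selection left out by name, read 6.15 in the null-labelled trachea, against 8.54 in WT trachea, and 6.11 in the null-labelled oviduct, against 8.31 in WT oviduct. Rfx3 stood at -0.94 in trachea and -0.89 in oviduct, and Rfx2 at -0.19 and -0.87. Foxj1 shares its probe set with Rnf157 and has no level of its own here, and that probe set differed by -0.38 and -0.56.

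The edge of the module was not sharp. Just inside the threshold were Slc20a1 (-1.0 in trachea), Catip (-1.01 in trachea), Nupr1 (-1.01 in oviduct) and Stk36 (-1.02 in oviduct), and just outside were Wdr38 (-0.98 in trachea) and AU020206, Runx1 and Lrrc8c (-0.98 each in oviduct). Another 35 genes outside the left-out families met both differences but had a WT level under 7 in 1 or both tissues, among them Wdr27, Fam81b, Clic6 and Jhy. Fam81b, at -2.91 in trachea and -3.27 in oviduct, missed the level by a small margin, with 6.98 in WT trachea.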

How the data were processed

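Per the submitters' processing notes the authors normalized the arrays with RMA. Its version and settings and the array's genome build were not given in the sources used here. Deposited values hold a second log2 of the log2 RMA signal: raising 2 to each value gave 6-digit numbers in 100% of cells (relative tolerance 1e-09), against 0.044% before. Levels are the values so raised. Of 72688 probe sets, 31219 were named to 1 gene through a RefSeq table (GRCm38.p6), and 1531 with several or unresolved genes were left out. The probe set with the highest mean stood for a gene. Groups follow the labelled tissue and genotype, with 1 array each, so no test was run. Genes were named by rule: the markers, the extremes of level and difference, up to 4 per role and the 4 nearest each side of the threshold. Roles were assigned after values were seen, and members and lists were chosen with earlier results of these data known. Python 3.11.15, pandas 2.3.3 and numpy 2.4.6 were used. Alternatives concerned probe set choice, thresholds, scaling, the background floor and the promoter window.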

Additional observations from a re-analysis of the deposited data

Results flagged for a closer look

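Among genes of the marker and family lists, 4 had measured log2 differences over 1 in opposite directions in the 2 tissues. The share of such genes over the whole array is not given here. There was 1 array a group, and the difference between the tissues was not tested. Agr2, the relative of Agr3, was at -3.76 in trachea and 1.43 in oviduct. Gmnc, the targeted gene, was at -1.26 in trachea and 2.75 in oviduct, but both of its trachea levels lie under the negative-control medians, so a 2-fold trachea difference is not shown. Scgb3a1, an airway secretoglobin, was at -5.79 in trachea and 1.16 in oviduct. Mlf1 was at 2.54 in trachea and -2.08 in oviduct, or -1.59 in oviduct with levels raised to the negative-control median. None of the 4 is among the 112 genes.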

How the results depend on the processing

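With 1 array a group no replicate could be left out, and no result here has a test. The 112 genes became 51 with a WT level of at least 8, 60 with a difference of at most -1.5 and 34 with at most -2, all of them among the 112 since these settings are stricter. Only 30 remained, all among the 112, when probe sets listed with more than 1 symbol were dropped, because the annotation joins synonyms. The other settings gave 95 to 144 genes: a WT level of at least 6 gave 144, centring 119, a second quantile normalization 111 (109 shared), and leaving out genes known from other cells and noncoding genes 95. Centring and quantile normalization shifted the median difference of all genes by 0.06 or less on the log2 scale. Of 92 differences of 46 named genes, all kept their direction under each of 4 settings and 366 of 368 values stayed at most -1. The exceptions, after quantile normalization, were Catip at -0.95 and Slc20a1 at -0.95, both in trachea. Counting only bases before the listed start, the loose X-box was in 18.4% of the genes with a window, against 4.86% at the WT level and 3.66% of all genes. GTTGCCA was then in 17.2%, against 4.08% and 4.19%. In the whole window the background share of the loose X-box was 5.92% in genes at the WT level in place of 4.38%. Levels under the negative-control median limit what folds can show. Raising them to it, for the rankings and list counts that say so, was chosen after seeing the data. Profile distances used measured levels. No paired analysis was possible because each group has 1 array.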
